A study of Homo sapiens with 8 samples.

Results

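Extracellular matrix genes, 10 in number, were followed through ATAC-seq peak lists of LX-2 cells, an immortalised human hepatic stellate cell line: the fibronectin gene FN1, the matricellular protein genes TNC, POSTN, THBS1, THBS2, SPARC and SPP1, and the elastic fibre genes ELN, FBN1 and FBN2. The rule names them and uses no measured value, and they are 10 of 20136 annotated protein-coding genes. A peak belonged to a gene where its summit lay in the gene body or within 50 kb on either side on build hg19 (GRCh37). Overlapping peaks of the 8 lists were merged into sites, and 113 of the 75501 sites with peaks from at least 2 libraries fell in these loci. ATAC-seq marks accessible chromatin as DNA into which a transposase can insert sequencing adapters.

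All libraries came from wild-type LX-2 cells, 100000 cells each, cultured on hydrogel of about 2 kPa (soft) or about 40 kPa (stiff). Cells were collected after 2 days (D2) or 4 days (D4), which gave 4 groups of 2 replicate libraries each, named D2 soft and D2 stiff, then D4 soft and D4 stiff. LX-2 is 1 established line, and the study's methods call its sequencing replicates biological, without saying more of how they were made. The gels of both stiffnesses carried crosslinked plasma fibronectin, so the FN1 product was part of the substrate in every group. The lists held 29789 and 55754 peaks in the D2 soft libraries, 59277 and 63684 in the D2 stiff, 63272 and 56362 in the D4 soft, and 65905 and 72840 in the D4 stiff libraries. D2 soft replicate 1 stood apart as the shortest list, with a median summit pileup of 10 fragments against 13 to 22 in the other 7 libraries. Among markers of hepatic stellate cells, 6 of 10 had a promoter peak in every library, including ACTA2, COL1A1 and PDGFRB, beside 46.1% of all protein-coding genes. COL1A2 had a promoter peak in 7 libraries, COL3A1 and LRAT in 1 each, and DES in none. No hepatocyte marker of 6 had one in every library, and ALB, APOA1, APOA2 and HNF4A had none in any. Of 5 immune markers, CD68 and CD14 had one in every library, CSF1R in 7, and PTPRC and CD163 in none. Of 4 cholangiocyte markers, KRT7 had one in every library, SOX9 in 7, EPCAM in 6 and KRT19 in none. Of 4 annotated endothelial markers none had one in every library.

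Fibronectin is a large adhesive glycoprotein that cells assemble into fibrils through integrins, and it is among the first proteins laid down in a fibrotic matrix. Matricellular proteins are secreted into the matrix but mainly signal to cells rather than bear load: tenascin-C, periostin, the thrombospondins, SPARC (osteonectin) and SPP1 (osteopontin) are all induced during tissue repair. Elastin and the fibrillins build elastic fibres, and fibrillin microfibrils also hold latent TGF-beta in the matrix. Activated stellate cells are a main source of these proteins in the injured liver.

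The sequences shown here are the regions on which the results below turn: the FN1 and THBS1 promoters, and at TNC, SPARC, POSTN, SPP1, THBS1 and FBN2 the site away from the start with the best mean rank, a missing peak counting as the end of the list. Each is the stretch within 100 bp of the summit of the best-ranked peak, on the strand of the gene, cut where an exon of a coding gene or a UTR began. Capitals mark matches on either strand to the AP-1 motif (TGACTCA or TGAGTCA), the TEAD motif (GGAATG or its reverse complement CATTCC) or the CArG box of SRF. No 2 matches overlap in these stretches.
FN1 promoter (chr2:216300989-216301189, minus strand): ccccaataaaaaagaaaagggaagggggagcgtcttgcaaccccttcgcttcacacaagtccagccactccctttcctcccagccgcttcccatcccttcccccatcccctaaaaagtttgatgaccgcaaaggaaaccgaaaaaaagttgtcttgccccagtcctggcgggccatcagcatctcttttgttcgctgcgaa
THBS1 promoter (chr15:39873130-39873279, plus strand): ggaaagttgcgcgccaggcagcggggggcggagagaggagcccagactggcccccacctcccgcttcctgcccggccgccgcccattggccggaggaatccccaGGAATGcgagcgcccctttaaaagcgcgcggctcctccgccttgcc
TNC strongest site, intron (chr9:117785382-117785582, minus strand): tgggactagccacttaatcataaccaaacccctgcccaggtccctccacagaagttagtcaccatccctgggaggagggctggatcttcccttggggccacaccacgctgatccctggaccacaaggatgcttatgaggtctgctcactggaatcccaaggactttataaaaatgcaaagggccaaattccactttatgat
SPARC strongest site (chr5:151078826-151079026, minus strand): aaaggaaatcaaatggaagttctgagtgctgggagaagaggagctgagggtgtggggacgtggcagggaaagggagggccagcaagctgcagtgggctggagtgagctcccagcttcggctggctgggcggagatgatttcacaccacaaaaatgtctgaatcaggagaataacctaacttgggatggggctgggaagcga
POSTN strongest site (chr13:38191374-38191574, minus strand): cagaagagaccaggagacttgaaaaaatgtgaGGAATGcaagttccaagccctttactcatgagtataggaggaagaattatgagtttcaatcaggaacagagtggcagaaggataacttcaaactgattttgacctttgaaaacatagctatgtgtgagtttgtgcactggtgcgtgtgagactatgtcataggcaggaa
SPP1 strongest site (chr4:88894530-88894730, plus strand): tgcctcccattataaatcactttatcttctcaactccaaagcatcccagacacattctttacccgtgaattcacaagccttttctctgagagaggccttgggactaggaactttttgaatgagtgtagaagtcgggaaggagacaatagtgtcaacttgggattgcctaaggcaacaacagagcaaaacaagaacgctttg
THBS1 strongest distal site (chr15:39917081-39917281, plus strand): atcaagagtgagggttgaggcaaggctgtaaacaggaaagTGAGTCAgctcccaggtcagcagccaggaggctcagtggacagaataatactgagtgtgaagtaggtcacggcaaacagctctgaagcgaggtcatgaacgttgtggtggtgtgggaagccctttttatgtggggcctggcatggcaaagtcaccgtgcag
FBN2 distal site (chr5:127612354-127612554, minus strand): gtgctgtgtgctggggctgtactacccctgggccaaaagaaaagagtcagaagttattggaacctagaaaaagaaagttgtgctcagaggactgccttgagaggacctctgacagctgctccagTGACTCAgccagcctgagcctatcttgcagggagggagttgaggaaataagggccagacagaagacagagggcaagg
The TEAD match of the THBS1 promoter and of the POSTN site, and the AP-1 match of the THBS1 distal site and of the FBN2 site, are the only matches in these 8 stretches.

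By median, accessible sites were denser in these loci than over all protein-coding loci. The loci held a median of 6.37 sites per 100 kb, against 3.93 over all protein-coding loci drawn in the same way (lower and upper quartiles 2.31 and 5.85). SPARC had the highest density, with 13 sites and 10.3 per 100 kb, and POSTN the lowest, with 3 sites and 2.20 per 100 kb. POSTN and FBN2, at 2.99, lay below the median of all loci. THBS1, FN1 and ELN, at 4.22, 5.12 and 5.63, lay within its quartiles. FBN1 held the most, 24 sites. TNC and FBN2 held 15 sites each, THBS2 12, FN1 and SPP1 9 each, ELN 8 and THBS1 5. Of the 113 sites, 7 lay within 1 kb of the main start of the gene, 10 at another annotated start of it, 11 at the start of a neighbouring gene and 85 farther from any start. The 28 sites at a start of any gene made up 24.8%, against 26.0% over all sites.

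The first question was which promoters of the group were accessible in these cells. A promoter peak was a peak whose summit lay within 1 kb of an annotated start of the gene. FN1, TNC, SPARC, FBN1 and FBN2 had one in all 8 libraries, which is 5 of 10 genes beside 46.1% of all protein-coding genes. POSTN, the periostin gene, had none in any library, as had 27.6% of all protein-coding genes. The other 4 lay in between: THBS2 in 7 libraries, THBS1 in 6, SPP1 in 4 and ELN in 3.

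Peaks were compared by rank, because the fold enrichment and p-values of a peak caller depend on the depth of their own library. A rank of 5% means that the peak was among the most significant 5% of its own list. Percentage ranks are by p unless fold enrichment is named. A longer list lifts the percentage rank of the same peak, so ranks that separated stiff from soft libraries were read against all 24246 sites with a peak in every library. On day 2 both stiff libraries ranked above both soft ones at 13 of the 40 such sites of these loci, against 29.6% of all, and below at 1, against 7.47%. On day 4 they ranked above at 9, against 31.5%, and below at 3, against 11.1%. When sites were put in order over those 24246 alone, an order that does not depend on list length and was added after the data had been seen, the counts above and below were 6 and 6 on day 2 (17.2% and 18.0% of all) and 4 and 9 on day 4 (19.8% and 19.8% of all).

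The SPARC promoter was the best-ranked of the group by p, with a median of 9.16% over the 8 libraries. Its ranks were 25.9% and 18.4% in the D2 soft libraries, 3.69% and 14.5% in the D2 stiff, 3.21% and 7.37% in the D4 soft, and 10.9% and 7.04% in the D4 stiff libraries. The lowest ranks were both in D2 soft, and the other 6 libraries, soft and stiff, overlapped. The summit lay 74 to 136 bp upstream of the main start in every library. By fold enrichment the SPARC promoter ranked at 14.2% to 47.7%, and the THBS2 promoter, where it had a peak, at 12.4% to 53.9%.

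THBS2 encodes thrombospondin-2, which modulates collagen fibril assembly. Its promoter ranked at 4.88% in D2 soft replicate 2, 12.4% and 14.3% in the D2 stiff libraries, 5.79% and 27.7% in the D4 soft, and 23.5% and 14.4% in the D4 stiff libraries, and had no peak in D2 soft replicate 1. The 3 soft libraries with a peak thus held both the best and the worst rank. A further THBS2 site 2.999 kb downstream of the main start, at another annotated start, was found in both D2 stiff libraries and in neither D2 soft library, and also in D4 soft replicate 2 and D4 stiff replicate 2, with ranks of 12.5% to 20.9%.

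The fibrillin promoters and the TNC promoter followed. FBN1, the main fibrillin of adult microfibrils, had a promoter rank of 60.3% and 14.7% in the D2 soft libraries, 19.1% and 22.3% in the D2 stiff, 29.7% and 24.1% in the D4 soft, and 12.9% and 15.6% in the D4 stiff libraries. FBN2, the fibrillin more prominent in development, ranked at 65.8% and 21.1% in the D2 soft libraries, 22.3% and 36.7% in the D2 stiff, 47.0% and 25.5% in the D4 soft, and 24.7% and 24.0% in the D4 stiff libraries. In both genes D2 soft replicate 1 was the lowest library, the groups overlapped on day 2, and on day 4 both stiff libraries ranked above both soft ones. In the order over the sites in every library this held at FBN1 and not at FBN2. Starts of the non-coding gene FBN1-DT and of the coding gene SLC27A6 lie within 1 kb of the FBN1 and the FBN2 summit, so that this signal cannot be assigned to 1 gene. The TNC promoter, upstream of the start of the tenascin-C gene, ranked at 48.0% and 37.9% in the D2 soft libraries, 30.6% and 22.6% in the D2 stiff, 15.8% and 17.8% in the D4 soft, and 11.2% and 21.9% in the D4 stiff libraries. On day 2 both stiff libraries ranked above both soft ones, but not in the order over the sites in every library, and on day 4 the groups overlapped.

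THBS1 encodes thrombospondin-1, which can activate latent TGF-beta. Peaks covered its main start in all 8 libraries, and the best-ranked peak there was 905 to 2681 bp wide. The summit rule, which counts any annotated start, found a promoter peak in 6 libraries. In D2 stiff replicate 1 the summit near the main start lay beyond 1 kb. That library was counted through a weak peak at another start 13.4 kb downstream, ranked at 90.75%. The best-ranked summit lay 1134 to 1219 bp upstream in D2 soft replicate 1, both D2 stiff libraries and D4 soft replicate 1, and 1 to 110 bp upstream in the other 4 libraries. The peak ranked at 27.8% and 40.8% in the D2 soft libraries, 41.2% and 31.2% in the D2 stiff, 37.2% and 48.5% in the D4 soft, and 20.04% and 22.9% in the D4 stiff libraries. On day 4 both stiff libraries ranked above both soft ones, in that order too, and on day 2 they overlapped. Where any overlap of a peak with the window around a start counted, a rule added after the data had been seen, 7 genes had a promoter peak in every library, THBS1 and THBS2 now among them.

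The FN1 promoter was the weakest of those open in every library. It ranked at 81.6% and 59.7% in the D2 soft libraries, 44.1% and 60.8% in the D2 stiff, 30.01% and 52.4% in the D4 soft, and 35.4% and 50.8% in the D4 stiff libraries, a median of 51.6%. Its fold enrichment over local background was 4.26 to 7.27, with 10 to 46 fragments at the summit. Soft and stiff libraries overlapped on both days. A divergent non-coding gene, FN1-DT, starts in the same region, so that signal at the shared promoter cannot be assigned to either gene. By median rank the order of the main starts was SPARC, THBS2, FBN1, TNC, FBN2, THBS1 and FN1 (THBS2 over its 7 libraries), and the ranges of neighbours in this order overlapped in every case.

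**Figure D1:**
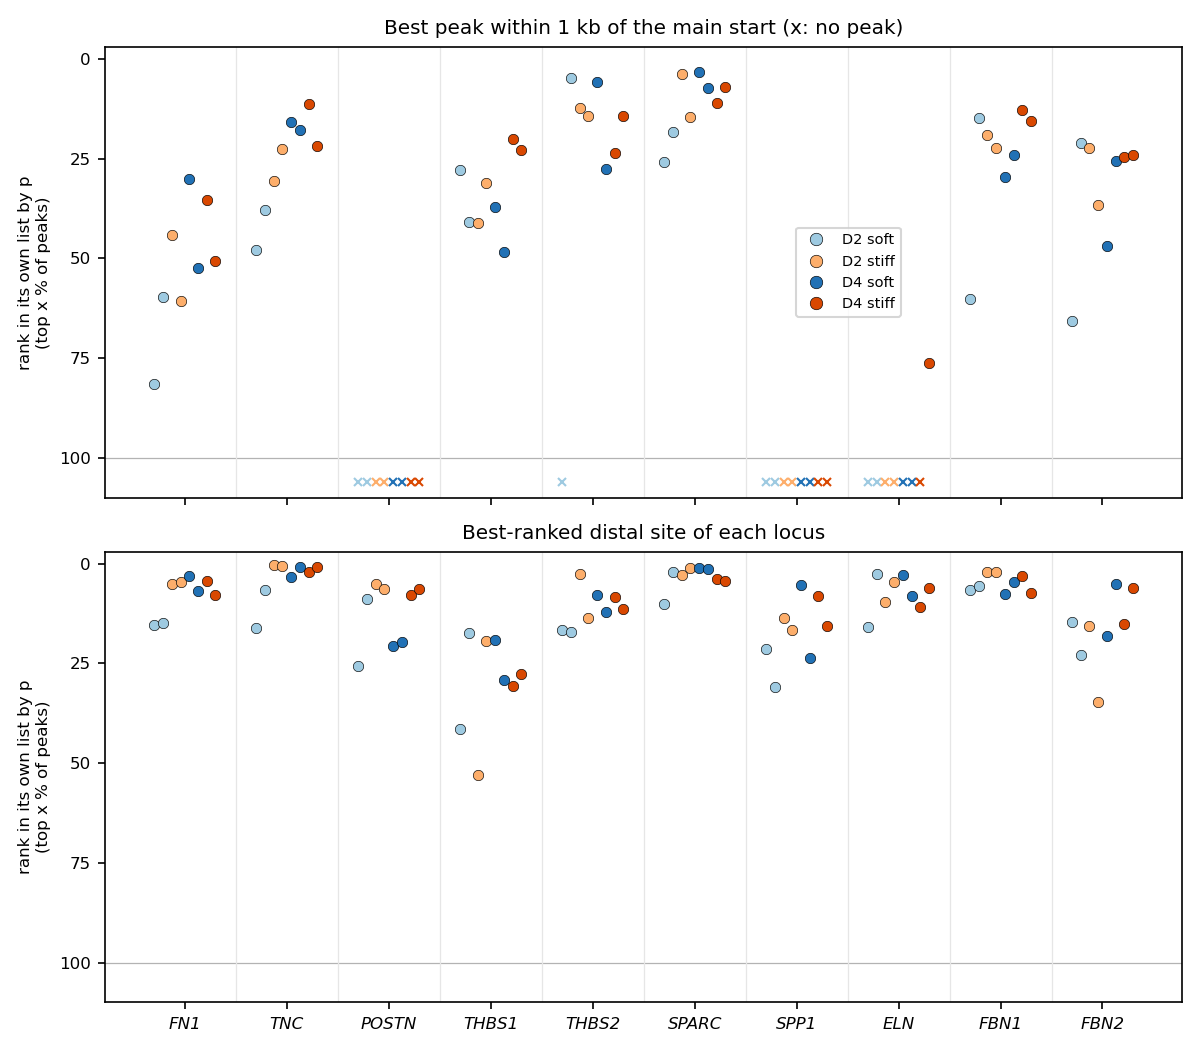
Rank of the best peak within 1 kb of the main start (upper panel) and of the best-ranked distal site (lower panel) for the 10 genes; the vertical axis gives the rank within the library's own list as a top percentage by p, with better ranks higher up, each point is 1 library coloured by group, and a cross marks no peak. The main starts of POSTN and SPP1 had no peak in any library, whereas each gene had a distal site with a peak in all 8 libraries.

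The 3 genes with no peak or a weak one at the main start had strongly accessible sites elsewhere in their loci. POSTN had 3 sites in its locus. The strongest, chr13:38191007-38191883, lay between genes 18.6 kb upstream of the main start, with ranks of 25.5% and 8.75% in the D2 soft libraries, 5.11% and 6.199% in the D2 stiff, 20.6% and 19.6% in the D4 soft, and 7.80% and 6.36% in the D4 stiff libraries. All 4 stiff libraries ranked above all 4 soft libraries. This held for 1 of the 40 sites that had a peak in every library, against 5.46% of all such sites, and the reverse for 0 of 40, against 0.4% of all. With both days together, the 4 stiff and 4 soft libraries overlapped at POSTN in the order over the sites in every library. On that scale 0 of 40 sites separated in either direction (1.96% above and 2.17% below over all). Within a day, still on that scale, both stiff libraries outranked both soft ones at 6 sites on day 2 (17.2% of all). On day 4 this held at 4 sites (19.8% of all). The POSTN site was among them on both days. Its fold enrichment, 8.16 and 14.0, 13.4 and 13.9, 10.6 and 9.70, and 13.3 and 14.3 in the same order, overlapped on day 2, where D2 soft replicate 2 lay among the stiff libraries. The rank score built on that enrichment, described below, differed by 0.47 between stiff and soft (SE 0.34, 95% interval -0.22 to 1.16, limma adjusted p = 0.776).

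SPP1, which encodes osteopontin, had no peak within 1 kb of its main start. The nearest site, chr4:88894325-88894997, lay 2236 bp upstream and was found in all 8 libraries, at ranks of 21.4% and 30.9% in the D2 soft libraries, 13.6% and 16.5% in the D2 stiff, 5.26% and 23.7% in the D4 soft, and 8.14% and 15.6% in the D4 stiff libraries. Both D2 stiff libraries ranked above both D2 soft ones, but not in the order over the sites in every library, and the D4 groups overlapped. A site 3.21 kb downstream of the main start, with its summit 271 bp from an alternative start of SPP1, had a weak peak in D2 soft replicate 2, D2 stiff replicate 2 and both D4 stiff libraries, at 59.7% to 92.2%. Neither D4 soft library had it.

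ELN, the elastin gene, had its only promoter peak 1145 bp upstream of the main start, near an alternative start, and in 3 stiff libraries alone. It ranked at 87.8% in D2 stiff replicate 2 and at 90.8% and 76.2% in D4 stiff, with 12, 14 and 16 fragments at the summit. All 3 were weak peaks of their lists. The strongest site of the locus, chr7:73493544-73493997, lay between ELN and LIMK1, 51.2 kb downstream of the main start, and ranked at 2.52% to 16.0% in all 8 libraries.

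The best-ranked distal site outranked the promoter in several loci. It was picked by rank from all distal sites of its locus, which favours it in this comparison. At TNC the strongest site, chr9:117785255-117785893, lay in an intron 94.95 kb downstream of the main start, where the gene DELEC1 also overlaps. It ranked at 16.0% and 6.44% in the D2 soft libraries, 0.250% and 0.666% in the D2 stiff, 3.33% and 0.846% in the D4 soft, and 2.02% and 0.923% in the D4 stiff libraries. The D2 stiff libraries ranked above the D2 soft ones on either scale, and on day 4 soft and stiff overlapped. The summit held 19 and 42 fragments in D2 soft and 54 to 94 in the other 6 libraries. Its rank score was 1.04 higher on stiff than on soft on day 2 (95% interval -0.04 to 2.11, limma adjusted p = 0.661), and the interaction of stiffness and day was -1.47 (-2.99 to 0.05, limma adjusted p = 0.920), so that neither passed the test. A second strong TNC site, 9.19 kb upstream of the main start in an exon of a non-coding gene, ranked at 3.56% to 15.5% in all 8 libraries.

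At SPARC, whose product binds collagen and calcium, the strongest site lay 12.4 kb upstream in an intron of the non-coding gene CLMAT3, at chr5:151078634-151079285. It ranked at 10.2% and 2.14% in the D2 soft libraries, 2.70% and 1.13% in the D2 stiff, 1.08% and 1.27% in the D4 soft, and 3.86% and 4.23% in the D4 stiff libraries. On day 4 both soft libraries ranked above both stiff ones on either scale, and on day 2 the groups overlapped. The pooled rank score was -0.51 (SE 0.33, 95% interval -1.19 to 0.17, limma adjusted p = 0.744).

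FBN1 had the most sites open in every library, 12 of its 24. The strongest, chr15:48972925-48974068, lay between genes 35.3 kb upstream of the main start and ranked at 6.46% and 5.63% in the D2 soft libraries, 2.17% and 2.02% in the D2 stiff, 7.51% and 4.60% in the D4 soft, and 2.99% and 7.42% in the D4 stiff libraries. A second, chr15:48687528-48688464, lay beyond the 3′ end of the gene and ranked at 3.03% to 10.95%. In the FBN2 locus the distal site of the best mean rank, a missing peak counting as the end of the list, was intronic, chr5:127612294-127612866, at 4.97% to 34.6%. An intergenic site 310.0 kb downstream of the FBN2 start, singled out after its values were seen, ranked at 1.99% to 11.9% in 7 libraries and had no peak in D2 soft replicate 1. THBS1 had its best distal site in an intron of the neighbouring FSIP1, at 17.3% to 53.0%, and THBS2 in intergenic sequence 85.7 kb downstream of its main start, at 2.46% to 17.0%. By fold enrichment that THBS2 site ranked at 19.7% to 60.15%. The best-ranked site of the FN1 locus was no FN1 element by annotation: it was the promoter of ATIC, a purine synthesis gene whose start falls inside the window, at 3.16% to 15.4%. Within FN1 itself an intronic site 24.97 kb downstream of the start, which held an AP-1 and a CArG match, had a peak in every library at 26.8% to 49.4%.

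The next question was whether the sites differed between soft and stiff matrix by presence. A site missing from a list is one where no peak passed the authors' q-value of 0.05, not one shown to be closed. Of the 113 sites, 40 (35.4%) had a peak in every library, against 32.1% of all sites, and every gene had at least 1 of them. A further 24 (21.2%, against 15.0% of all sites) were missing from D2 soft replicate 1 alone, so that 64 were in every library once that list was left out. D2 soft replicate 1 lacked 69 of the 113 sites.

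**Figure D2:**
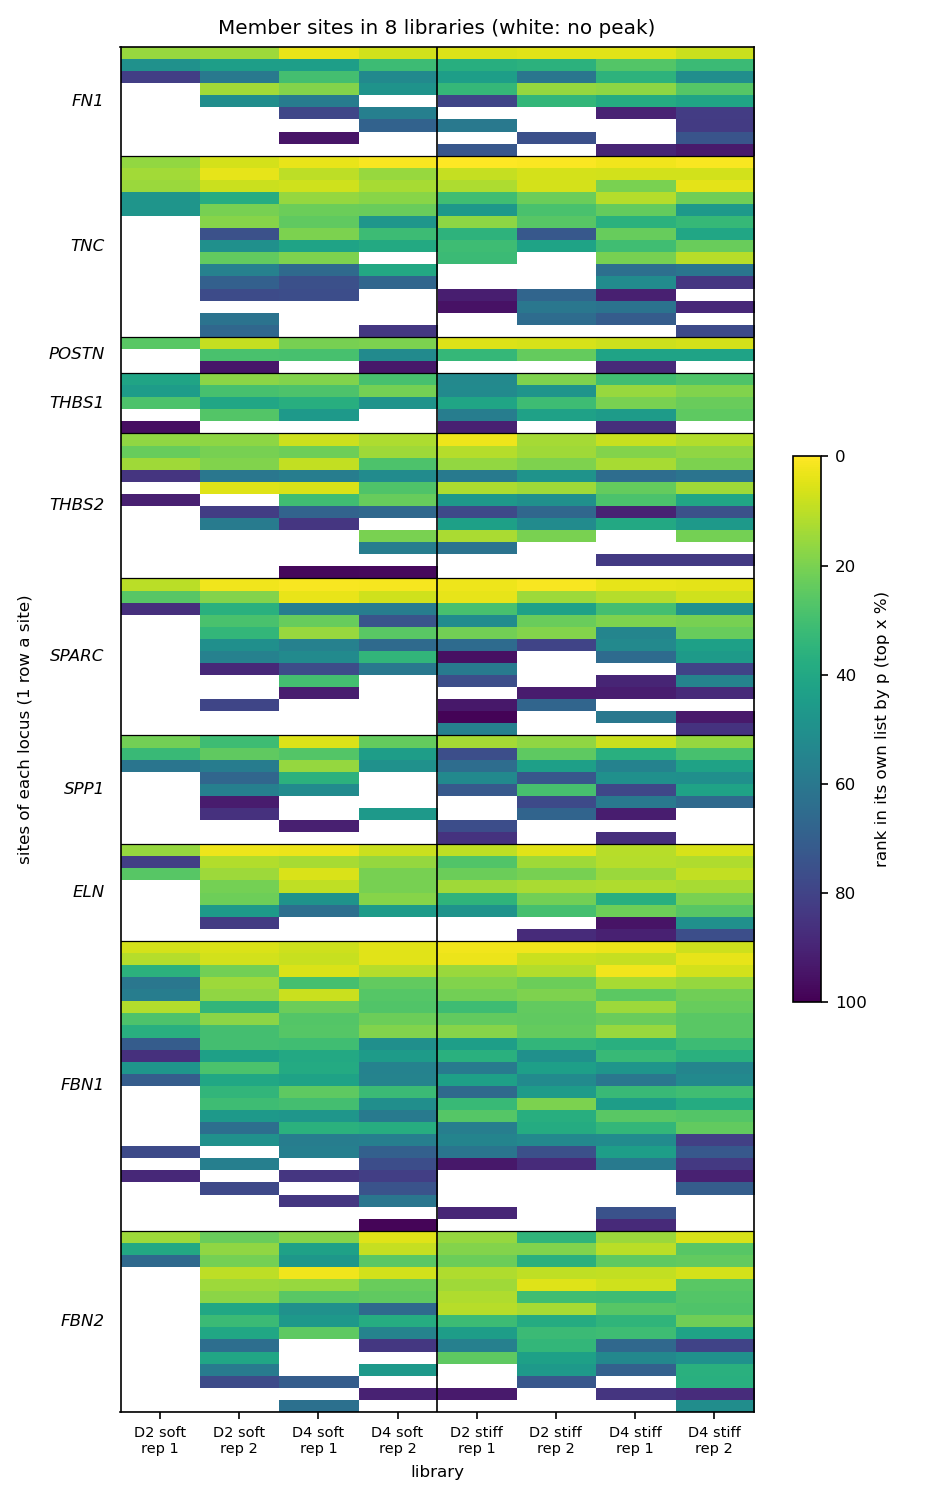
Each row is 1 of the 113 sites, grouped by gene, and each column 1 library, soft to the left and stiff to the right; the colour gives the rank of the site's best peak within that library's list, from the top (yellow) to the end (dark), and white means no peak. The first column, D2 soft replicate 1, has peaks at 44 sites, and the upper rows of each gene are filled in all 8 columns.

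On day 2, 2 sites were found in both stiff libraries and neither soft one (1.77%, against 7.45% of all sites), 1 of them the THBS2 site at the alternative start, and 0 were found in both soft libraries and neither stiff one (0.391% of all sites). With D2 soft replicate 2 left out, so that the short list alone stood for D2 soft, the stiff-only count was 36, and it was 12 without D2 stiff replicate 2, 5 without D2 stiff replicate 1 and 4 without D2 soft replicate 1. On day 4, 8 sites were found in D4 stiff only (7.08%, against 6.72% of all sites), and they belonged to FN1, TNC, THBS2, SPARC, SPP1, ELN and FBN2. In lists cut to equal length the count was 2, and without D4 soft replicate 1 the count was 16. Here and below, site counts with a library left out or with lists of equal length have no share over all sites beside them. They show only how far the count moved. The 2 sites of D4 soft only (1.77%, against 1.31% of all sites) belonged to THBS2 and FBN1. Their ranks were 97.4% and 98.0% at THBS2 and 60.8% and 83.9% at FBN1, towards the weak end of the lists.

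Across both days 1 site had a peak in all 4 stiff libraries and no soft one, which is 0.885% of the 113 sites against 0.850% of all sites. In lists of equal length the count was 0. No site had a peak in all soft and no stiff library (0 of 113, against 0.0172% of all sites).

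Sites found in stiff libraries alone were weak as a group. There were 8, of which 1 was in 4 stiff libraries, 3 in 3 and 4 in 2. Their peaks held a median of 10 fragments at the summit and ranked from 56.5% to 99.01%, with a median of 85.4%, while the 40 sites in every library had a median of 29 fragments and a median rank of 21.2%. Another 2 sites were found in soft libraries alone. Shares over all sites are not given for these 2 counts. A site absent from several lists is more likely to be weak, so the contrast does not set stiff-only sites apart from other sites in few libraries. By number of libraries, 56 sites (49.6%, against 47.5% of all sites) had a peak in more stiff than soft libraries, 9 (7.96%, against 6.98%) in more soft than stiff and 48 (42.5%, against 45.5%) in as many of each. Of the 56, 24 were the sites missing from D2 soft replicate 1 alone.

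Between days the pattern was similar in size. On the soft matrix 3 sites were found in D4 only (2.65%, against 5.79% of all sites), at FN1, THBS2 and FBN1, and 0 in D2 only (0.403% of all sites). The D4-only count was 31 without D2 soft replicate 2 and 6 without D2 soft replicate 1, D4 soft replicate 1 or D4 soft replicate 2. On the stiff matrix 5 sites were found in D4 only (4.42%, against 5.35% of all sites), at FN1, TNC, THBS2 and ELN, and 1 in D2 only (0.885%, against 1.41% of all sites), at SPARC. The D4-only count was 11 without D2 stiff replicate 1, 9 without D2 stiff replicate 2 and 8 without D4 stiff replicate 1.

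The number of peaks per locus was then compared. The 10 loci together held 45 and 90 peaks in the D2 soft libraries, 100 and 89 in the D2 stiff, 91 and 88 in the D4 soft, and 103 and 104 in the D4 stiff libraries. Per 10000 peaks of the list this was 15.1 and 16.1, 16.9 and 14.0, 14.4 and 15.6, and 15.6 and 14.3. With both days together soft and stiff libraries overlapped on both scales. On day 4 alone the counts of both stiff libraries lay above those of both soft ones, while the counts per 10000 peaks overlapped. With all lists cut to 29789 peaks the loci held 45 peaks in D2 soft replicate 1 and 57 to 62 in the other 7 libraries.

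With both days together, no locus separated all soft from all stiff libraries by its count. Within a day, both stiff counts lay above both soft ones at FN1 on both days. The same held at THBS2 and FBN1 on day 2, and at TNC, SPARC and ELN on day 4. In lists of equal length it held at none of these, but at FBN2 on day 4. The reverse then held at THBS1 on day 2 and SPP1 on day 4. Shares over all loci within a day are not given, and no test was run. In the lists as deposited FN1 held 5.50 ± 1.91 peaks on soft and 8 ± 1.41 on stiff (SD, n = 4), TNC 10.8 ± 3.95 and 13.0 ± 1.83, and SPARC 7.5 ± 3.11 and 10.8 ± 1.89. FBN1 held 19.0 ± 3.74 on soft and 21.8 ± 1.26 on stiff, FBN2 10.5 ± 5.07 and 14.0 ± 1.15, and ELN 5.50 ± 1.73 and 7.75 ± 1.5. Mean counts were higher on stiff in 10 of 10 loci, against 83.2% of all protein-coding loci, and lower in 0, against 6.42%. With both days together soft and stiff libraries overlapped in each of them. Counts above in every stiff library were found in 0 of 10 loci (5.08% of all protein-coding loci), and counts below in every stiff library in 0 of 10 (0% of all). Without D2 stiff replicate 2 the first of these counts was 2, with no share over all loci given. In lists of equal length both counts were again 0 of 10, where 0.566% and 0.358% of all protein-coding loci were above and below. The mean was then higher on stiff in 5 loci (39.6% of all) and lower in 4 (31.5% of all): higher at FN1, TNC, THBS2, ELN and FBN2, equal at POSTN, and lower at THBS1, SPARC, SPP1 and FBN1.

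**Figure D3:**
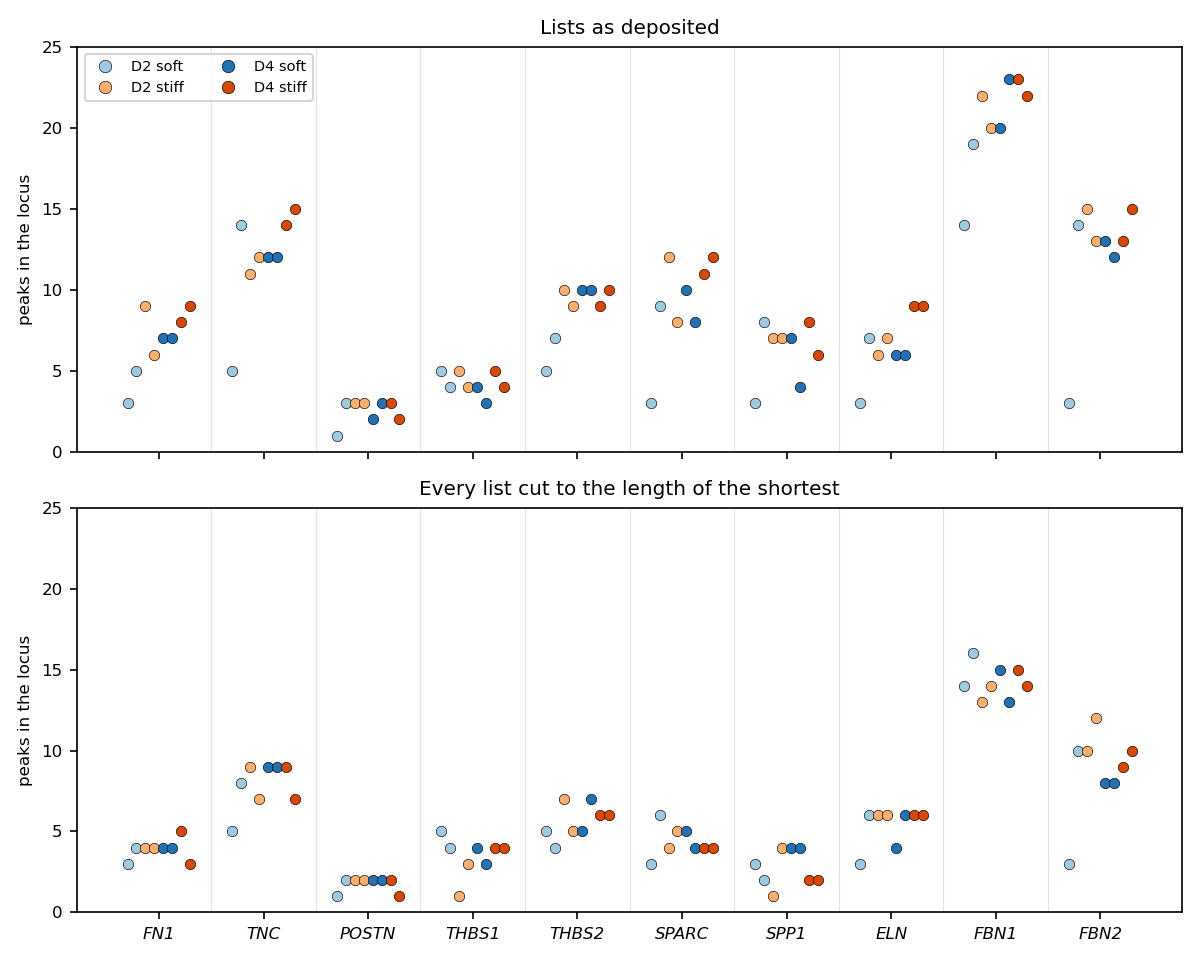
Peaks in each locus, with 1 point for each library coloured by group, in the lists as deposited (upper panel) and in lists cut to the length of the shortest (lower panel); the vertical axis is the number of peaks. D2 soft replicate 1 lies lowest in most loci of the upper panel, and with both days together soft and stiff points overlap in every locus of both panels.

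Signal strength was tested at the 40 sites present in all 8 libraries. Within a library, the fold enrichment was put in order over all 24246 such sites and turned into a normal score, on which 0 is the middle of the list and 1 has 15.9% of the sites above it. The scores were fitted with limma over all 24246 sites. In the pooled contrast of stiff against soft 0 of the 40 sites passed an adjusted p of 0.05, where 0.00825% of all sites did, and 0 passed an unadjusted p of 0.05, where 7.72% of all sites did. The smallest adjusted p was 0.704, for a TNC site 39.2 kb upstream of the main start, whose rank score was -0.65 (SE 0.36, 95% interval -1.39 to 0.10). Rank scores of the 40 sites differed by -0.65 to 0.52 between stiff and soft, with a median of -0.09 beside -0.02 over all sites. Standard errors were 0.33 to 0.39 in this contrast of 4 against 4 libraries and 0.47 to 0.55 in contrasts of 2 against 2, so that differences of the size seen here were not detectable with these libraries.

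**Figure D4:**
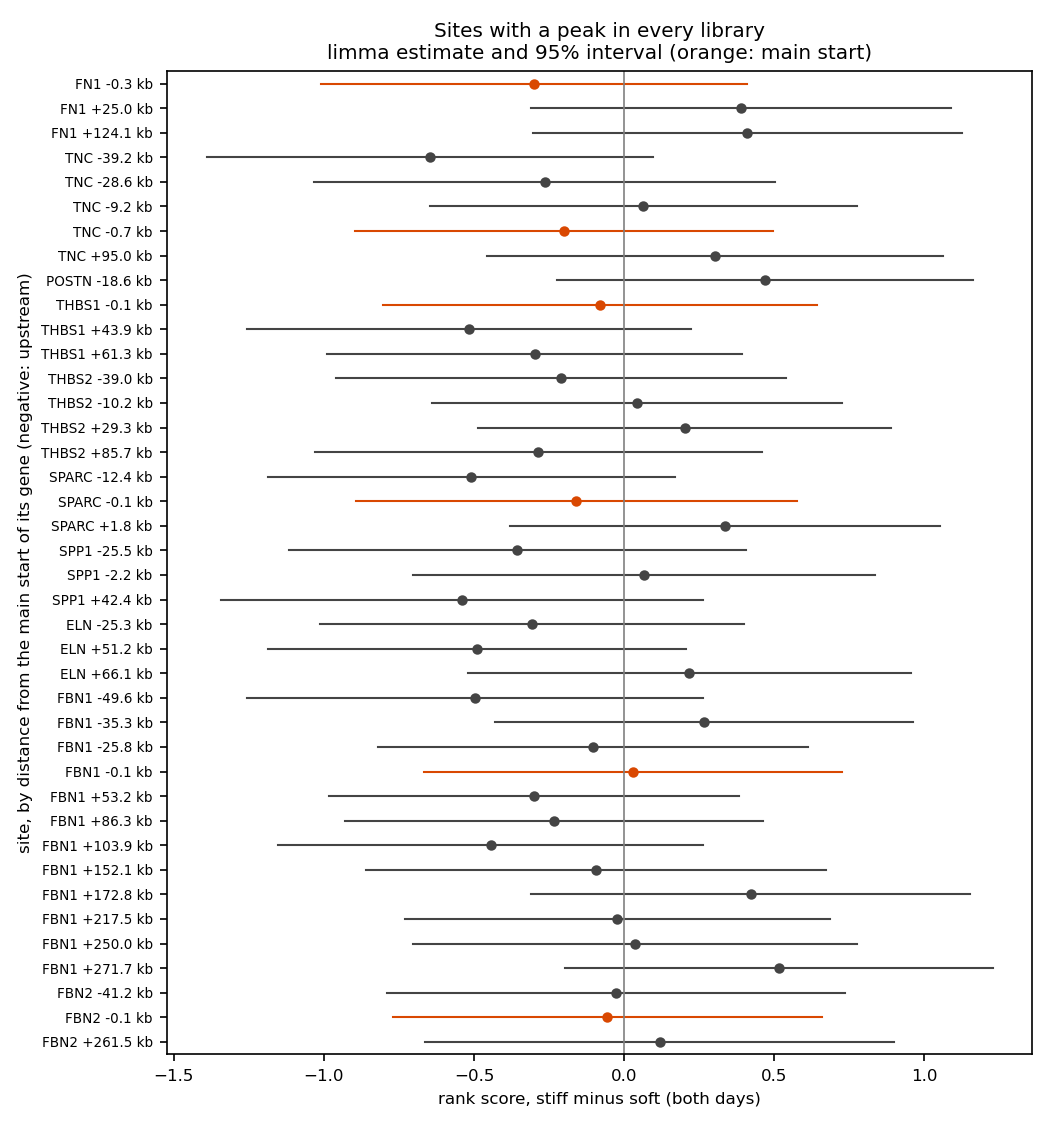
Difference in rank score between stiff and soft libraries, both days pooled, for the 40 sites present in all 8 libraries; the point is the limma estimate and the line its 95% interval, main starts are orange, and each site is labelled by its distance from the main start of its gene. The 95% interval of every site includes 0, and the estimates run from -0.65 to 0.52.

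At the main starts the intervals reached from about 1 unit below to less than 1 unit above 0. FN1 differed by -0.30 (95% interval -1.01 to 0.41), TNC by -0.20 (-0.90 to 0.49) and SPARC by -0.16 (-0.89 to 0.58). THBS1 differed by -0.08 (-0.80 to 0.64), FBN2 by -0.06 (-0.77 to 0.66) and FBN1 by 0.03 (-0.67 to 0.73). These intervals do not show that the promoters were equal on soft and stiff matrix, only that no difference passed the test. The signs at TNC, THBS1, SPARC and FBN2 turned when ranks of the p-value were used, and that of FBN1 when sites in at least 6 libraries were scored.

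Within a day the limma fit gave the same outcome. On day 2, 0 of 40 sites passed an adjusted p of 0.05 (0.00412% of all sites) and 0 an unadjusted p of 0.05 (7.65% of all sites). On day 4, both counts were 0 (0.00825% and 5.35% of all sites). The interaction of stiffness and day also gave 0 by both rules (0% and 5.27% of all sites). Between days on the soft matrix, both counts were 0 (0% and 7.07% of all sites). The unadjusted counts were less firm than the adjusted ones: with ranks of the p-value the day 2 count was 4, and with sites in at least 6 libraries, which adds sites, it was 3 on day 2 and 5 between days on the soft matrix.

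Between days on the stiff matrix 0 sites passed an adjusted p of 0.05 (0% of all sites), and 3 passed an unadjusted p of 0.05, 3 of 40, beside 5.04% of all sites. All 3 had higher scores on day 4, and with ranks of the p-value the count was 1. They were singled out with their values known, and each has a limma adjusted p of 0.926. The first, chr15:39933866-39934885, lies in an intron of FSIP1, 61.3 kb downstream of the THBS1 start, with a fold enrichment of 7.62 and 8.06 in D2 stiff and 12.8 and 12.4 in D4 stiff. Its score differed by 1.48 (95% interval 0.50 to 2.46), and D4 stiff libraries were above D2 stiff libraries. The second, chr15:48665749-48666742 beyond the 3′ end of FBN1, had 11.1 and 11.9 in D2 stiff and 15.7 and 13.8 in D4 stiff, a difference in score of 1.10 (0.09 to 2.11). The third was the FBN2 intron site, with 12.3 and 9.88 in D2 stiff and 13.3 and 16.1 in D4 stiff, a difference of 1.14 (0.04 to 2.241).

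Motif letters were compared with all sites in the same window of 100 bp on each side of the summit, both strands. The AP-1 letters TGACTCA or TGAGTCA were in 31 of the 113 sites (27.4%), against 30.2% of all sites. Among the 85 sites away from any start the share was 28.2% against 36.3%, and of the 28 sites at a start 7 held it, against 12.9% of all. The TEAD letters GGAATG were in 31 sites as well (27.4%), against 19.1% of all sites, with 25.9% against 21.8% away from starts and 32.1% against 11.3% at starts. In a window of 50 bp the TEAD shares were 13.3% against 11.1% and the AP-1 shares 15.0% against 20.4%. The CArG box was in 2 sites, at FN1 and TNC (1.77%, against 1.15% of all sites). AP-1 letters occurred in 5 sites each of TNC, THBS2, FBN1 and FBN2 and in 0 of the 9 SPP1 sites, and TEAD letters in 6 each of SPARC and FBN1. The median GC content was 46.8% against 48.3%, and at starts 54.2% against 63.2%. These shares are descriptions of sequence and say nothing of binding.

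The other genes of these families were read in the same way, from a list of 32 that included further CCN proteins, thrombospondins, tenascins, fibulins and latent TGF-beta binding proteins. A promoter peak was found in every library for 10 of the 32 (against 46.1% of all protein-coding genes), among them TGFBI, EFEMP1, EFEMP2, LTBP1 and MFAP4. It was found in no library for 9 (against 27.6% of all), among them COMP, SPARCL1, FBLN1 and FBN3. The remaining 13 had one in some libraries. Of their 15 promoter sites that had a peak in every library, 0 passed an adjusted limma p of 0.05 in the pooled, day 2 or day 4 contrast of stiff against soft. At an unadjusted limma p of 0.05, 2 of the 15 were higher on stiff in the pooled contrast and 2 on day 2. Both were at LTBP1, a TGF-beta storage protein gene. On day 4, 1 of the 15 was lower on stiff, at TGFBI. By this rule 7.72% of all sites passed in the pooled contrast, 7.65% on day 2 and 5.35% on day 4, in either direction. These LTBP1 sites differed by 1.24 (limma adjusted p = 0.410) and 0.92 (limma adjusted p = 0.635) in the pooled contrast. Another LTBP1 site among the 15 differed by 0.05 (limma adjusted p = 0.98).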

How the data were processed

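ATAC-seq peak lists of 8 LX-2 libraries were analysed, grouped by the sample labels. Per the submitters' processing notes and the study's methods, the authors trimmed reads with Trim Galore, mapped them to hg19 with Bowtie2 2.4.1, used Picard and bedtools 2.24.0, and called peaks in each library with MACS2 at a q-value up to 0.05; MACS2 options are not given in the sources used here. The deposited columns hold a fold enrichment (a ratio of summit pileup to local background), the authors' −log10 p and −log10 q, and a score that is 10 times the latter and was not used. These values compare only within a list, so ranks were used. Whole-number summit pileups, the depth measure given, were recovered from the fold enrichment and p for at least 99.9964% of the peaks of each list; read totals were not used here.

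Peaks overlapping by at least 1 bp were merged and sites in at least 2 libraries kept. Genes came from GENCODE release 44 on GRCh37 and sequence from GRCh37. Sites with a peak in all 8 libraries were scored and fitted with limma 3.58.1 in R 4.3.3 (lmFit and eBayes, 4 group means, Benjamini-Hochberg over 24246 sites), tested on simulated data. Two-sided p-values measure only the spread between these libraries. The sequence and position of 1 site are not reported here. Named were all 10 genes with their promoter sites, the best distal site by mean rank, sites in the 4 libraries of one stiffness alone, and sites with an unadjusted p under 0.05 in the pooled contrast. The genes, lists and tests were chosen with earlier results of these data known. Labels and the peak names within the files give different replicate numbers for some libraries, and the labels were used. By the replicate numbers of the labels no pairing of libraries was seen (correlation of deviations -0.04 to 0.08). Pairing by the numbers in the peak names was not tested. Alternatives changed the q-value, list length, merging, flank, promoter and motif windows, ranked value and libraries.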

Additional observations from a re-analysis of the deposited data

Results flagged for a closer look

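Counts of peaks in each locus and in all loci together were examined for single libraries far from the other 3 of the same stiffness. Of 22 groups of 4 libraries, 2 stood out by Dixon's test. Chance alone marks about 1 in 20 groups where values are continuous and groups independent. These counts are small whole numbers with ties, and the total sums the same loci, so that rate need not hold. In the soft libraries D2 soft replicate 1 had 45 peaks in the 10 loci, the next lowest having 88, a gap of 0.935 of the whole range, above the limit of Dixon's test for 4 values. Its median summit pileup, 10 fragments, was also the lowest, and its part in the counts was not tested beyond the values without it and with lists of equal length. At POSTN, D4 stiff replicate 2 had 2 peaks and the other 3 stiff libraries 3 each, a difference of 1 peak.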

How the results depend on the processing

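The count of sites past an adjusted limma p of 0.05 was 0 in all 6 contrasts under every alternative run, the replicate block (0) and each library left out included. At an unadjusted p of 0.05 the pooled count of 0 became 2 with ranks of −log10 p and 5 with sites in at least 6 libraries. At an unadjusted p ranks of −log10 p gave 4 on day 2 and 1 each on day 4 and for the interaction, sites in at least 6 libraries 3 on day 2, 1 on day 4 and 5 between days on soft, merging by summits 1 on day 2, and the fit to the libraries of 1 day 1 on day 4. With 1 library left out these counts were 0 to 2 pooled, 0 to 3 on day 2, 0 to 2 on day 4, 0 to 3 for the interaction and 0 to 5 between days on soft. With the replicate block the unadjusted day 2 count was 1 in place of 0, and the other counts were those without the block. In the order over the sites in every library, an alternative chosen after seeing the data, 0 sites in place of 1 ranked above in every stiff library. No site had a peak in all soft and no stiff library under any alternative run.

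Counts by presence moved more, and the presence counts in this section have no share over all sites beside them. Lists of equal length gave 70 sites in place of 113, 1 D2 stiff-only, 1 D2 soft-only, 2 D4 stiff-only, 1 D4 soft-only, 1 soft D2-only, 1 stiff D4-only, 0 all-stiff sites, and 3 genes with no promoter peak in place of 1. With a peak in at least 1 replicate there were 15 D2 stiff-only, 7 D2 soft-only, 13 D4 stiff-only, 4 D4 soft-only, 13 soft D4-only, 6 soft D2-only, 11 stiff D4-only and 3 stiff D2-only sites. A flank of 10 kb gave 67 sites, 22 in every library, 1 D4 soft-only, 1 soft D4-only, 2 stiff D4-only and 0 stiff D2-only. Merging by summits gave 1 D2 soft-only, 1 soft D2-only and 2 stiff D2-only, and a q-value up to 0.01 gave 1 D4 soft-only. Motif windows of 50 bp held AP-1 letters in 17 sites (15.0%, against 20.4% of all sites), TEAD letters in 15 (13.3%, against 11.1%) and the CArG box in 1 (0.885%, against 0.531%).

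Leaving out each library in turn gave 40 to 64 sites in every library, 2 to 36 D2 stiff-only, 0 to 6 D2 soft-only, 8 to 16 D4 stiff-only, 1 to 4 D4 soft-only, 3 to 31 soft D4-only, 0 to 5 soft D2-only, 5 to 11 stiff D4-only, 1 to 3 stiff D2-only, 1 to 3 all-stiff sites, and 0 to 2 loci with every stiff count above every soft count. The highest D2 soft-only and soft D2-only counts came without D2 soft replicate 1, the highest D4 soft-only count without D4 stiff replicate 2, and the highest stiff D2-only and all-stiff counts without D2 stiff replicate 2. The cause was not tested.

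Pooled differences in rank score changed sign at sites with small estimates. With ranks of −log10 p the TNC start gave 0.053, THBS1 0.12, SPARC 0.0054 and FBN2 0.15, and the distal sites of THBS2 and FBN2 0.15 and -0.32; with sites in at least 6 libraries the FBN1 start gave -0.12. With 1 library left out the distal sites ranged from -0.0055 to 0.61 at TNC, -0.59 to 0.019 at THBS2, -0.30 to 0.43 at SPP1 and -0.23 to 0.47 at FBN2, and the starts from -0.39 to 0.24 at THBS1, -0.47 to 0.15 at SPARC, -0.10 to 0.16 at FBN1 and -0.27 to 0.16 at FBN2. None of these passed the test.

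Depth limits both kinds of result: the lists hold peaks and not reads, a missing peak at 10 fragments or fewer may be a matter of depth, and limma standard errors were 0.33 to 0.39 units for 4 against 4 libraries and 0.47 to 0.55 for 2 against 2.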
